A study of Gallus gallus with 60 samples.

Results

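Potassium channel genes of the chicken (Gallus gallus) utricle were measured in streptomycin-treated and control tissue over 11 labelled times. The set was every row of the deposited expression table whose gene name starts with KCN and whose level reached 1 RPKM in at least 2 libraries. RPKM are reads scaled by transcript length and by the library's alignments, and that unit was inferred. This rule kept 43 of 65 KCN rows (66.2%), out of 17684 rows in the table, of which 78.4% met the same level rule. The utricle is a vestibular organ of the inner ear. Per the labels, utricles were dissected, exposed to streptomycin for 24 h and left to recover, and the controls are labelled as control without further detail. Streptomycin is an aminoglycoside antibiotic that kills hair cells. RNA-seq was made of treated and control utricles labelled 0, 24, 48, 54, 60, 66, 72, 96, 120, 144 and 168 h; no label gives the start of that clock, the age, the strain or the number of animals in a sample.

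Potassium channels let potassium leave or enter a cell along its gradient and so set the resting potential, the speed of the receptor potential and its return to rest. In hair cells they shape the response to the opening of the transduction channels. Around hair cells, other potassium channels carry the ion through supporting and secretory epithelium into the endolymph that bathes the hair bundles. Channels are built from pore-forming subunits, from silent subunits that open only together with others, and from accessory proteins that alter gating or transport.

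The table held 60 libraries, which were 56 samples after repeat libraries of 4 samples were combined. Each arm had 4 samples at 24 h, 3 at 72, 96, 120 and 168 h, and 2 at 0, 48, 54, 60, 66 and 144 h. Depth ran from 1486991 to 40331879 alignments with a median of 21154441, and 7 libraries were under 5000000. All 13862 rows that met the level rule were tested together with limma on log2(RPKM + 0.5), a scale that understates the fold of low genes, and a gene was called at a Benjamini-Hochberg adjusted p under 0.05. The series calls the samples biological but does not say that they came from separate animals, so these p-values measure only the spread between the samples, which may be technical. In bulk RNA, fewer cells of a type and less RNA per cell cannot be told apart.

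The hair cell markers, none of them listed at 0 in any library, were present in the tissue and low after treatment. The 9 tested were OTOF, MYO7A, TMC2, CALB2, OCM2, ESPN, PTPRQ, SLC17A8 and LOXHD1. All 9 fell in the mean over the 11 times (all rows: 12.5%), with a median difference of -2.09 on the log2 scale. Their summed level ran from 473 to 2306 RPKM in control samples (median 1497) and from 169 to 557 RPKM in treated samples (median 273). The library labelled control at 168 h, replicate 3, was the lowest control at 473 RPKM, below treated replicates 1 (515 RPKM) and 2 (557 RPKM) of the same time. For part of the genes, results over 96 to 168 h are therefore also given without it. The part of cell numbers in the potassium channel results below was not tested.

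In control tissue the members spanned a wide range of levels. The order of genes by level holds only if the values are per transcript length, which was not checked. Their mean control level ran from 0.508 RPKM for KCNV1, a silent subunit, to 34.6 RPKM for KCNAB2, a cytoplasmic beta subunit of the KCNA channels, with a median of 2.65 RPKM. After KCNAB2 came the 2-pore leak channel KCNK1 at 20.5 ± 3.82 RPKM, the voltage-gated KCNA2 at 13.2 ± 3.63, the inward rectifier KCNJ16 at 11.2 ± 3.58 and the voltage-gated KCNA3 at 10.1 ± 6.40 (SD, n = 28). The last 3 differed by less than their SDs, whereas KCNAB2 (SD 14.7) and KCNK1 stood above them by more than the SD of KCNK1. Of the 43 members, 5 had a mean control level of 10 RPKM or more and 9 of less than 1 RPKM.

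After streptomycin far more of these genes were lower than higher. In the mean effect over the 11 times, 20 of the 43 members (46.5%) fell and 4 (9.30%) rose, while 12.5% of all rows tested fell and 18.5% rose. The median member differed by -0.24 on the log2 scale, against 0.06 over all rows. Over all rows the split of calls was 2570 higher and 1737 lower; with trimmed-mean scaling it was 1900 higher and 2118 lower. Among those that fell were KCNA1, KCNA2, KCNA3, KCNA4, KCNC1, KCNC2, KCND2, KCNQ5, KCNG4, KCNV1, KCNMA1, KCNN2, KCNT1, KCNJ2, KCNK1, KCNAB1, KCNAB2, KCNIP2 and KCNMB4. Those that rose were KCNA5, KCNH7, KCNG2 and KCNT2. The level rule favours some of these calls. For KCNQ5 and KCNV1 only control samples reached 1 RPKM. Among treated samples, KCND2 reached it only in replicate 1 at 120 h and KCNT1 only in replicate 1 at 24 h. Among controls, KCNT2 reached it only in replicate 1 at 120 h. The calls of these genes are part of the counts above.

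**Figure D1:**
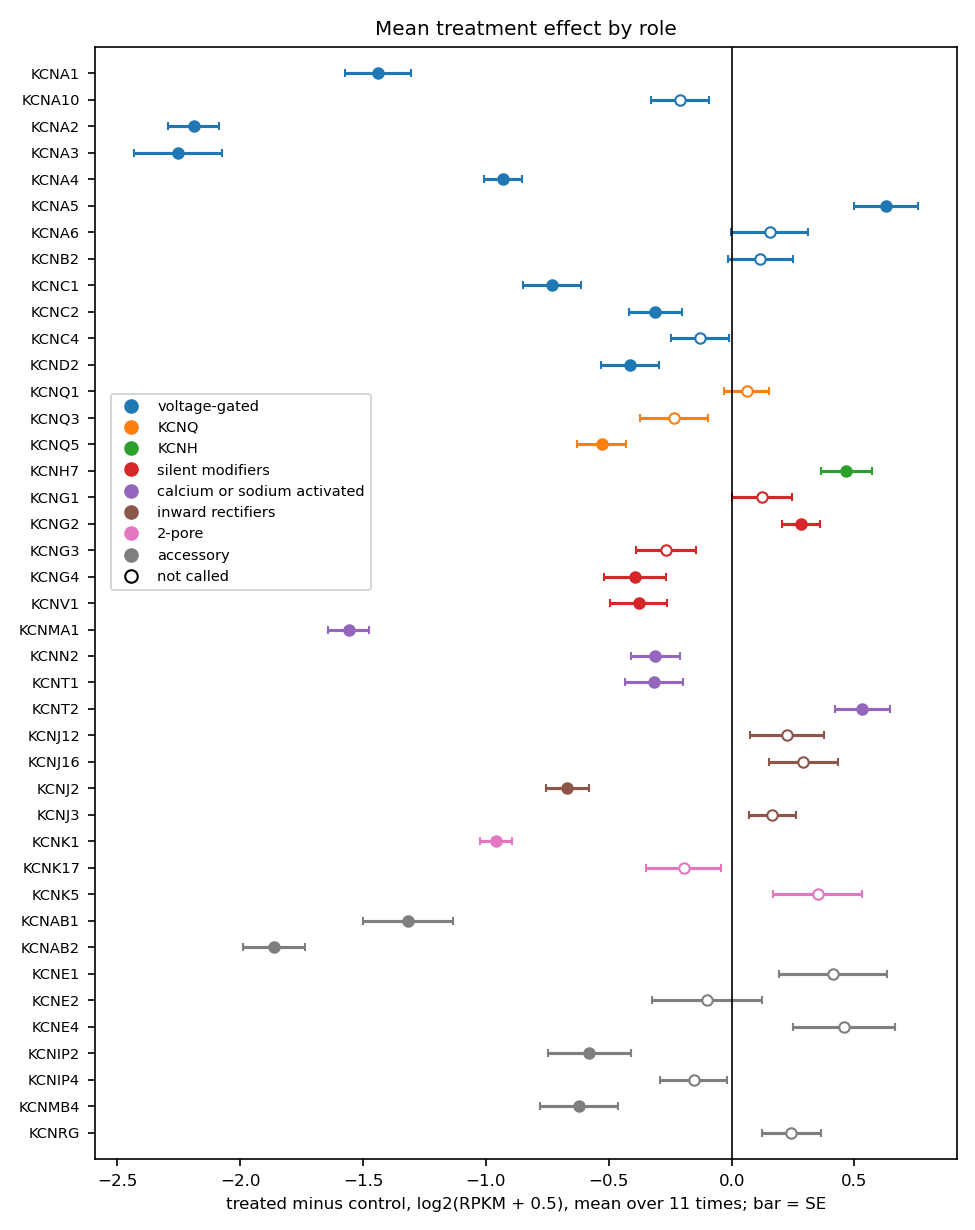
Mean difference between treated and control utricles over the 11 times for 41 of the 43 genes on the log2(RPKM + 0.5) scale, coloured by role, with bars of 1 SE; filled points passed the adjusted p of 0.05. The genes farthest to the left are KCNA3, KCNA2, KCNAB2 and KCNMA1, and KCNA5 at 0.63 is the farthest to the right.

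More members fell than rose in each window of time and over the single times. At 0 and 24 h, 11 members (25.6%) fell and 0 rose (all rows: 5.98% fell and 6.77% rose). There limma gave an unadjusted p under 0.05 for 1 higher member. At 48 to 72 h, 18 (41.9%) fell and 3 (6.98%) rose (all rows: 10.2% and 9.13%). At 96 to 168 h, 10 (23.3%) fell and 5 (11.6%) rose (all rows: 7.11% and 9.65%). Rises in this last window were thus not rarer than over all rows. There limma gave an unadjusted p under 0.05 for 9 higher and 13 lower members. Over all rows the early split of 939 higher and 829 lower was 609 and 957 with trimmed-mean scaling and 605 and 869 with quantile normalization; the late split of 1337 higher and 985 lower was 1043 and 1269 with trimmed-mean scaling. Over 473 comparisons of 1 gene at 1 time, 64 (13.5%) fell and 0 rose (all rows by 11 times: 2.32% and 1.54%). Among these, limma gave an unadjusted p under 0.05 for 19 higher ones. By time, 5 members fell at 0 h, 11 at 24 h, 6 at 48 h and 4 at 54 h. Then 7 fell at each of 60, 66, 72 and 96 h, 6 at 120 h and 2 at each of 144 and 168 h. Sample numbers differ between these times, and the share of all rows at each time is not given here. The counts are therefore not read as a time course of the members. The 5 members that rose at 96 to 168 h were 4 without control replicate 3 at 168 h, 2 without control replicate 2 or treated replicate 1 at 144 h, and 3 without control replicate 3 or treated replicate 1 at 96 h, treated replicate 2 or 3 at 120 h, control replicate 1 or treated replicate 2 at 144 h, or control replicate 1 or treated replicate 3 at 168 h. They were also 3 with a pseudocount of 0.1, with trimmed-mean scaling and with quantile normalization.

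**Figure D2:**
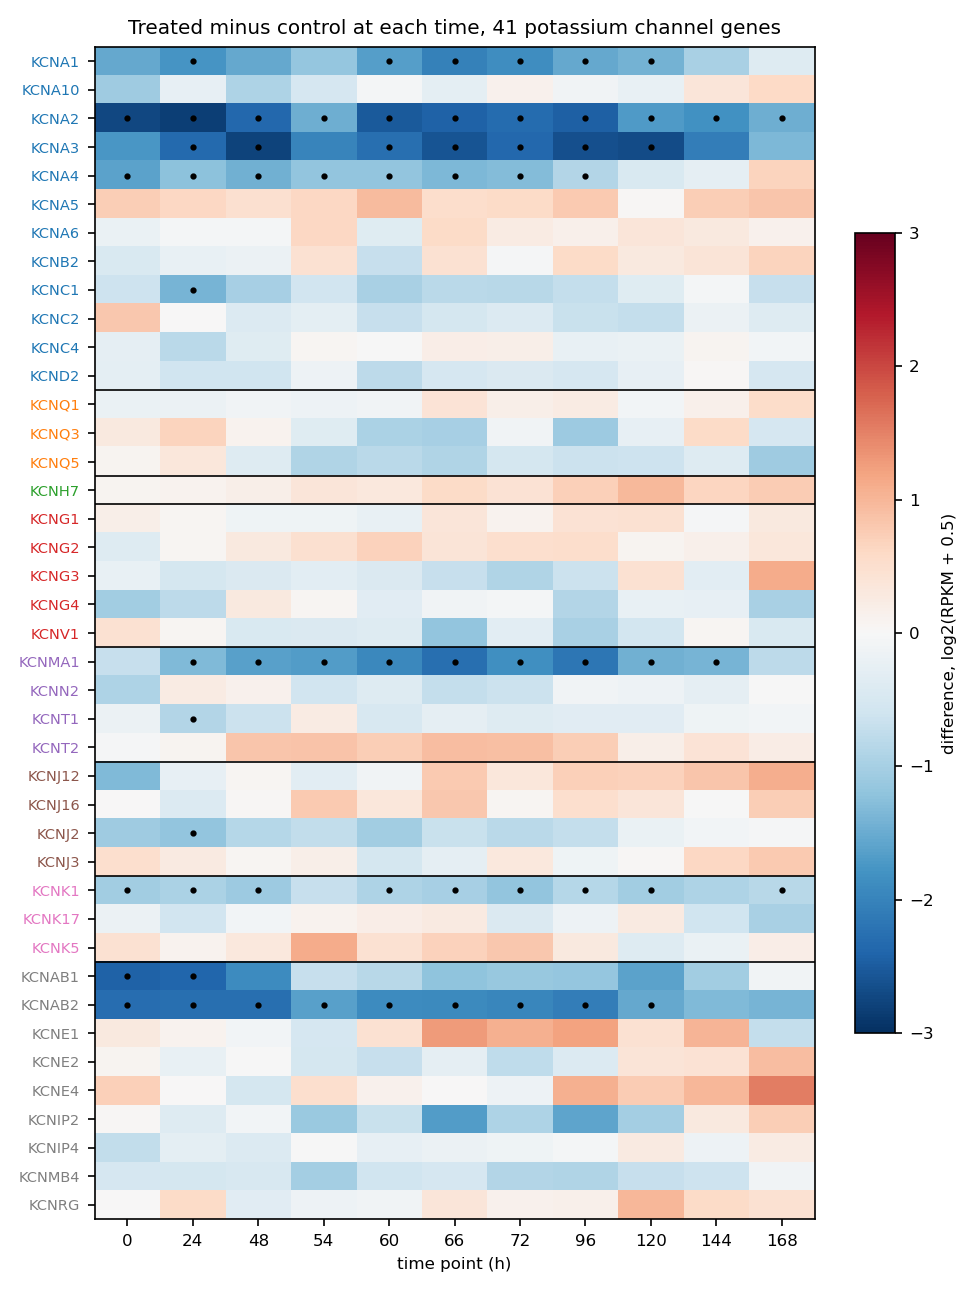
Difference between treated and control at each labelled time (columns, hours) for 41 of the 43 genes (rows, grouped by role with name colours as in the plot of mean effects), as log2(RPKM + 0.5); black points mark the 64 differences called. KCNA2 was called at all 11 times, and KCNA4 turned from -1.60 at 0 h to 0.66 at 168 h.

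Of the 13 voltage-gated pore subunits of the KCNA to KCND families, 7 fell and 1 rose in the mean effect (all rows: 12.5% and 18.5%). The other families below hold few genes, and their counts are not read as results about a family. KCNA2, a delayed rectifier opened by small depolarizations, had 6.27, 13.0 and 20.3 RPKM in its lowest, median and highest control sample and 1.13, 2.34 and 6.53 RPKM in the treated ones. Every treated sample lay below every control sample at 10 of the 11 times; the exception was 168 h, where treated replicate 1 reached 6.53 RPKM and control replicate 3 had 6.27. KCNA2 fell by 2.19 (SE 0.10, adjusted p 4.45e-20), 4.56-fold on the shifted scale, and was called at all 11 times. How often the arms were apart over all rows was not counted. With 2 samples per arm at many times, uncalled genes separated too. Treated KCNJ3 lay above all controls at 4 times, and treated KCNQ3 below them at 3 and above them at 3. Statements on overlap, here and below, therefore only describe the samples.

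KCNA3, a channel of the same subfamily, held 3.28, 8.997 and 38.0 RPKM in controls and 0.518, 1.43 and 8.79 RPKM in treated samples (lowest, median and highest). The groups were apart at 10 of 11 times, and the highest value in either arm came from a shallow library: control replicate 2 at 24 h and treated replicate 1 at 168 h, with 2046765 and 1486991 alignments. KCNA3 fell by 2.25 (SE 0.18, adjusted p 2.52e-13) in the mean effect and was called at 7 times. In the gene table of assembly GRCg7b, KCNA10, KCNA2 and KCNA3 follow one another. KCNA10, which in mouse is present in hair cells, did not pass: its control samples ran from 1.10 to 9.20 RPKM and its treated ones from 0.803 to 5.85, a difference of -0.21 (SE 0.12, adjusted p 0.185). With treated and control samples of one number taken as pairs, KCNA10 was called lower at 0 and 24 h (-0.66, adjusted p 0.0172, against 0.0964 unpaired). Its late effect then lay above the early one (0.82, adjusted p 0.0196, against 0.110). Pairing raised the calls over all rows too. At 0 and 24 h they went from 939 higher and 829 lower to 1974 and 1227. In the mean effect they went from 2570 and 1737 to 3556 and 2237. The calls that pairing added here and below are therefore not read as particular to these genes.

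**Figure D3:**
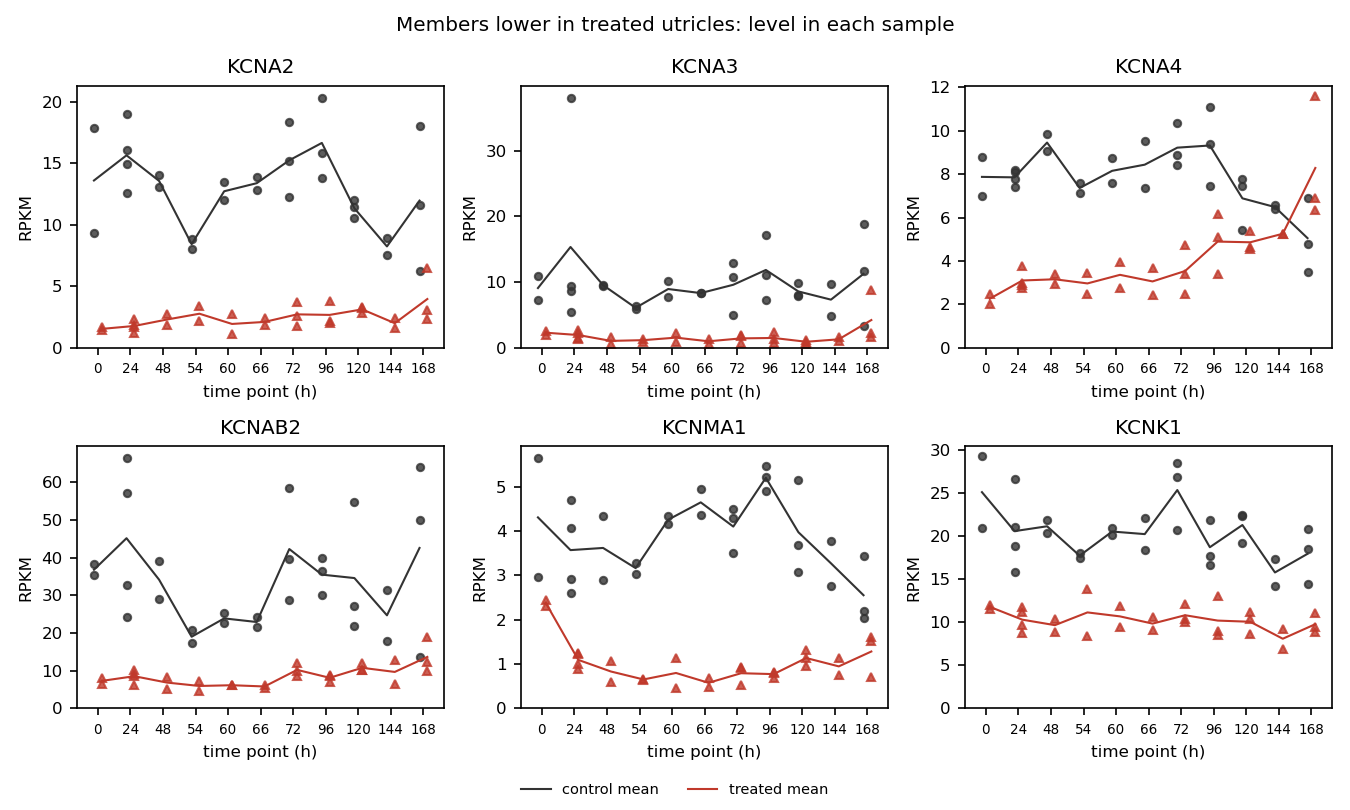
Level in RPKM (vertical axes from 0) of KCNA2, KCNA3, KCNA4, KCNAB2, KCNMA1 and KCNK1 in each control sample (dark circles) and each treated sample (red triangles) at the 11 labelled times in hours, spaced evenly; lines join group means. KCNMA1 and KCNK1 show no overlap between arms at any time, and the treated mean of KCNA4 passes its control mean at 168 h.

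KCNA1, KCNA5 and KCNA6 also lie next to one another, and they differed in direction. KCNA1, a low-threshold delayed rectifier, had 0.689, 3.34 and 8.12 RPKM in controls and 0.222, 0.771 and 2.33 RPKM in treated samples. It fell by 1.44 (SE 0.13, adjusted p 1.63e-11), with separate groups at 9 times. KCNA5, another delayed rectifier, ran from 0 to 3.64 RPKM in controls (median 1.80) and from 0.921 to 8.10 RPKM in treated samples (median 3.15). It rose by 0.63 (SE 0.13, adjusted p 2.00e-04) and was higher in treated samples at all 11 times, with no overlap at 7 of them. KCNA6 did not pass, at 9.70 ± 3.68 RPKM in controls and 10.8 ± 3.93 in treated samples (SD, n = 28 each).

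KCNA4, which gives a fast inactivating current, fell at 0 and 24 h and at 48 to 72 h and was not called at 96 to 168 h. Its controls were 6.98 and 8.77 RPKM at 0 h and the treated samples 2.50 and 2.03. At 168 h the controls were 4.77, 6.91 and 3.49 RPKM, and the treated samples 11.6, 6.92 and 6.36. Treated samples were below all controls at 10 of the 11 times, with 96, 120 and 144 h among them. Only at 168 h did the 2 arms overlap, and there the treated mean was the higher. The highest, treated replicate 1, was the shallowest library of the study.

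The difference for KCNA4 was -1.41 (SE 0.17) at 0 and 24 h, -1.29 (SE 0.12) at 48 to 72 h and -0.24 (SE 0.12, adjusted p 0.192) at 96 to 168 h. Without control replicate 3 at 168 h the last was -0.29 (limma, adjusted p 0.0924). The late difference lay 1.17 above the early one (SE 0.21, adjusted p 5.58e-04). In an F test of whether the treatment effect differed among the 11 times, KCNA4 was the 1 member called (adjusted p 0.00137; at most 0.00638 when any 1 sample was left out), against 1.48% of all rows. The count was 2 without treated replicate 3 at 60 h or treated replicate 1 at 168 h.

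Of the KCNC subunits, which open and close fast at strong depolarization, KCNC1 and KCNC2 fell. KCNC1 had 1.14, 1.89 and 4.38 RPKM in controls and 0.316, 0.998 and 2.36 RPKM in treated samples. The arms were separate at 8 of 11 times, and KCNC1 fell by 0.73 (SE 0.12, adjusted p 4.96e-06). Its call at 0 and 24 h (-1.004, adjusted p 0.00786) ended without control replicate 2 or treated replicate 1 of 0 h (highest adjusted p 0.0996). KCNC1 at 96 to 168 h (-0.46, adjusted p 0.0865) was called with pairing (adjusted p 0.0210) and without control replicate 3 at 168 h (-0.54, adjusted p 0.0408).

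KCNC2 changed less, from 9.18 ± 3.32 RPKM in controls to 7.04 ± 2.24 in treated samples (SD, n = 28), a fall of 0.31 (SE 0.11, adjusted p 0.0240) that ended without control replicate 2 at 48 h or at 54 h (highest adjusted p 0.0548). At 0 and 24 h its difference was 0.40 (adjusted p 0.30); it fell by 0.46 at 48 to 72 h and by 0.48 at 96 to 168 h, calls lost when any 1 of 33 and of 17 samples, respectively, was left out, the second also without control replicate 3 at 168 h (adjusted p 0.0586). With pairing, its late effect lay below the early one (-0.88, adjusted p 0.00512, against 0.0526). KCND2, a subthreshold inactivating channel, had low levels of 0.853 ± 0.335 RPKM in controls and 0.514 ± 0.287 in treated samples and fell by 0.41 (SE 0.12, adjusted p 0.00631). With a pseudocount of 0.1 its fall was 0.69. Of its treated samples only replicate 1 at 120 h reached 1 RPKM, so the level rule favoured a fall. With pairing KCND2 was also called at 48 to 72 h (-0.49, adjusted p 0.0250, against 0.0576). KCNB2 and KCNC4 were not called.

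The beta subunits of the KCNA channels both fell. KCNAB2 had 13.5, 30.7 and 66.5 RPKM in controls and 4.61, 8.52 and 18.9 RPKM in treated samples. All treated samples were below all controls at 10 times; at 168 h treated replicate 2 (18.9 RPKM) passed control replicate 3 (13.5). KCNAB2 fell by 1.86 (SE 0.13, adjusted p 3.21e-15), called at 9 times. KCNAB1 had 1.71, 6.97 and 20.7 RPKM in controls and 0.605, 2.58 and 14.5 RPKM in treated samples, and the arms overlapped at 2 times. It fell by 1.32 (SE 0.18, adjusted p 2.71e-07), with -2.40 (SE 0.41) at 0 and 24 h and -0.98 (SE 0.29, adjusted p 0.0151) at 96 to 168 h. The last call ended without control replicate 1 at 144 h (-0.89, adjusted p 0.0525). The late minus early difference of KCNAB1, 1.42, passed with pairing (adjusted p 0.00665, against 0.0696).

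KCNIP2 and KCNIP4, calcium-binding proteins that attach to KCND pores, were less alike. KCNIP2 ran from 0 to 4.32 RPKM in controls (median 1.42) and from 0 to 3.02 RPKM in treated samples (median 0.903), fell by 0.58 (SE 0.17, adjusted p 0.00739) and fell by 0.90 (SE 0.27, adjusted p 0.0129) at 48 to 72 h. With a pseudocount of 0.1 the latter was not called (adjusted p 0.0635). KCNIP4 was not called for treatment, at 8.29 ± 3.83 RPKM in controls and 7.12 ± 2.41 in treated samples (SD, n = 28).

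Calcium activated and sodium activated channels moved in both directions. KCNMA1 forms the large conductance calcium activated channel, which in hair cells of several vertebrates carries a fast current. It had 2.03, 3.92 and 5.66 RPKM in controls and 0.465, 0.926 and 2.43 RPKM in treated samples. At all 11 times every treated sample lay below every control. KCNMA1 fell by 1.56 (SE 0.08, adjusted p 1.39e-18), 2.94-fold on the shifted scale.

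The difference for KCNMA1 was -1.01 (SE 0.19) at 0 and 24 h, -1.87 (SE 0.13) at 48 to 72 h and -1.44 (SE 0.13) at 96 to 168 h. At 0 h it was -0.68 and not called, with controls at 2.96 and 5.66 RPKM and treated samples at 2.43 and 2.32; at 66 h it was -2.27, with controls at 4.94 and 4.35 RPKM and treated samples at 0.675 and 0.471. Its late and early effects did not differ past the threshold (-0.44, SE 0.23, adjusted p 0.251), and the step from early to middle was not tested by itself. KCNMB4, the beta subunit of that channel among the members, fell by 0.62 (SE 0.16, adjusted p 0.00231), from 3.97 ± 2.07 to 2.51 ± 1.74 RPKM. Its call at 48 to 72 h (-0.69, adjusted p 0.0444) was lost when any 1 of 13 samples was left out. With pairing, KCNMB4 was called at 0 and 24 h (-0.52, adjusted p 0.0450, against 0.385) and at 96 to 168 h (-0.58, adjusted p 0.00208, against 0.111). Over all rows, pairing took the calls at 48 to 72 h from 1266 higher and 1411 lower to 2089 and 1869. At 96 to 168 h it took them from 1337 and 985 to 2189 and 1572.

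KCNN2, a small conductance calcium activated channel that works in hair cells with efferent acetylcholine receptors, had 0.535, 1.48 and 2.83 RPKM in controls and 0.458, 1.09 and 2.62 RPKM in treated samples. The arms overlapped at 6 of 11 times, and KCNN2 fell by 0.31 (SE 0.10, adjusted p 0.0139). Its call at 48 to 72 h (-0.44, adjusted p 0.0391) was lost when any 1 of 15 samples was left out. The sodium activated channels KCNT1 and KCNT2 differed in direction. KCNT1 fell by 0.32 (SE 0.12, adjusted p 0.0347) at levels of 0.792 ± 0.652 and 0.477 ± 0.290 RPKM, a call lost when any 1 of 7 samples was left out and a fall of 0.52 with a pseudocount of 0.1. With pairing KCNT1 was also called at 0 and 24 h (-0.53, adjusted p 0.0423, against 0.195). Of its treated samples only replicate 1 at 24 h reached 1 RPKM, so the level rule favoured a fall.

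KCNT2 rose by 0.53 (SE 0.11, adjusted p 2.39e-04). Of its control samples only replicate 1 at 120 h reached 1 RPKM, so the level rule favoured a rise. At 0 h the controls had 0.365 and 0.477 RPKM and the treated samples 0.385 and 0.413, while at 48 h the controls had 0.757 and 0.773 and the treated samples 1.62 and 1.87. The arms overlapped at 0 and 24 h and were apart at 48, 54, 60, 66, 72, 96 and 144 h. At 48 to 72 h KCNT2 rose by 0.85 (SE 0.18, adjusted p 3.14e-04), from 0.672 ± 0.172 to 1.63 ± 0.434 RPKM (SD, n = 11); its differences were 0.03 at 0 and 24 h and 0.39 at 96 to 168 h, neither called.

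**Figure D4:**
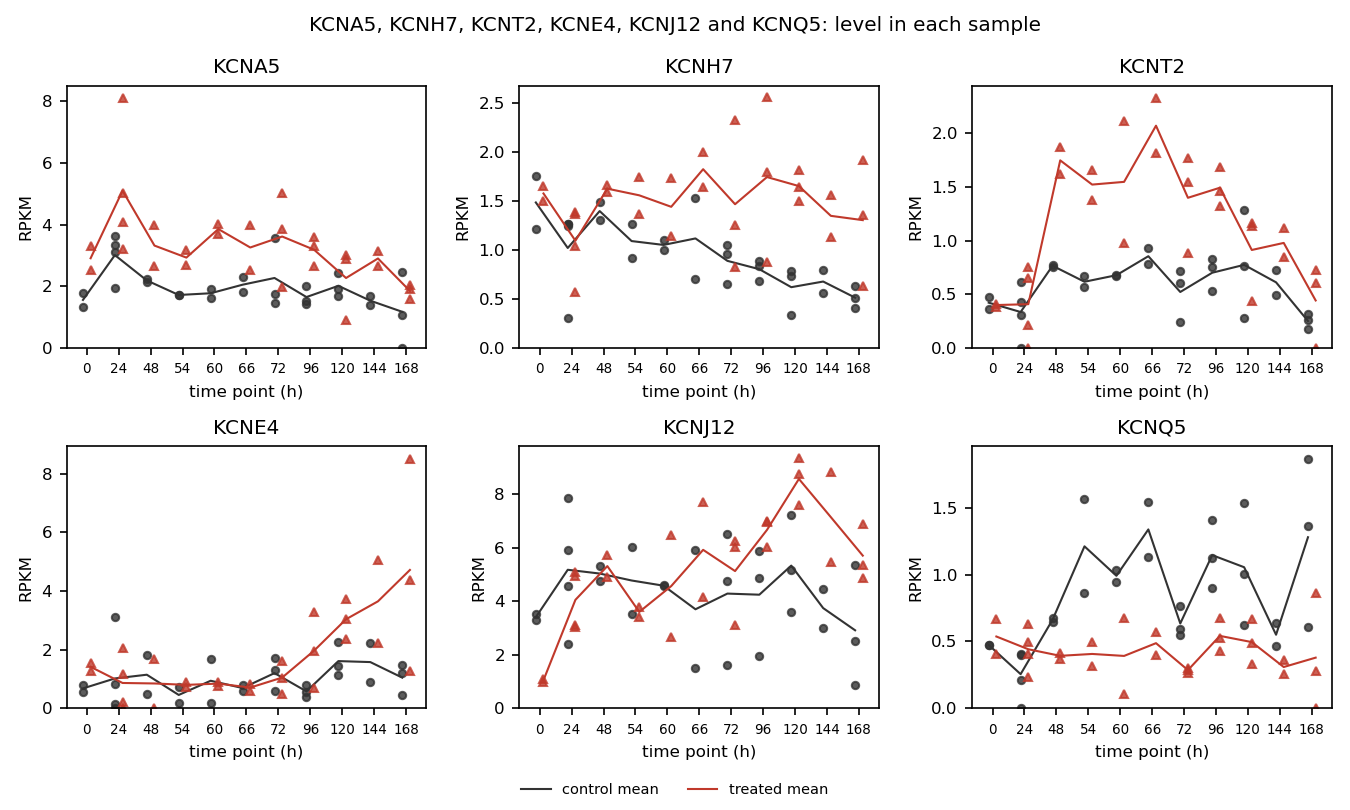
Level in RPKM (vertical axes from 0) of KCNA5, KCNH7, KCNT2, KCNE4, KCNJ12 and KCNQ5 in each control sample (dark circles) and each treated sample (red triangles) at the 11 labelled times in hours, spaced evenly; lines join group means. KCNT2 in treated samples stands above its controls at 48 to 96 h, and the control mean of KCNQ5 exceeds the treated mean from 48 h. The treated means of KCNE4 and KCNJ12 exceed the control means at every time from 96 h on and also at some earlier times.

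Of the 4 inward rectifiers, which hold the resting potential, KCNJ2 fell in the mean effect and the other 3 were not called (all rows: 12.5% fell). KCNJ2 had 4.31, 7.91 and 9.83 RPKM in controls and 1.42, 4.56 and 8.52 RPKM in treated samples. The treated samples were below every control at 7 times, and KCNJ2 fell by 0.67 (SE 0.09, adjusted p 1.09e-07). Its difference was -1.13 (SE 0.20) at 0 and 24 h, -0.82 (SE 0.14) at 48 to 72 h and -0.25 (SE 0.14, adjusted p 0.248) at 96 to 168 h. The late effect lay 0.88 above the early one (SE 0.24, adjusted p 0.0184), a call that ended without control replicate 2 or treated replicate 1 of 0 h (smallest difference 0.70, highest adjusted p 0.139).

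KCNJ12, a close relative of KCNJ2, had 3.52 and 3.29 RPKM in controls and 1.11 and 0.988 RPKM in treated samples at 0 h. At 120 h it had 7.22, 5.17 and 3.60 RPKM in controls and 9.37, 8.75 and 7.60 in treated samples. The treated samples were thus the low ones at 0 h and the high ones at 120 h, with no overlap at either time. Its effect was -0.79 (SE 0.33, adjusted p 0.117) at 0 and 24 h and a rise of 0.83 (SE 0.24, adjusted p 0.0119) at 96 to 168 h, and the late effect lay 1.62 above the early one (SE 0.41, adjusted p 0.0106). Without control replicate 3 at 168 h, where KCNJ12 had 0.858 RPKM, these last differences were 0.69 (adjusted p 0.0303) and 1.48 (adjusted p 0.0136). With pairing KCNJ12 was also called lower at 0 and 24 h (adjusted p 0.0249). KCNJ16, the most abundant inward rectifier of the set, ran from 2.71 to 17.9 RPKM in controls and from 3.03 to 24.8 in treated samples and was not called, nor was KCNJ3.

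Among the 3 leak channels with a pair of pore domains, KCNK1 fell and KCNK5 and KCNK17 were not called (all rows: 12.5% fell in the mean effect). KCNK1 had 14.3, 20.6 and 29.3 RPKM in controls and 6.89, 10.2 and 13.9 RPKM in treated samples. No treated sample reached the lowest control at any time, nor over the whole series. KCNK1 fell by 0.96 (SE 0.06, adjusted p 1.88e-15), 1.95-fold, and by nearly the same amount in each window, with -0.996 at 0 and 24 h, -0.98 at 48 to 72 h and -0.92 at 96 to 168 h. The late minus early difference was 0.08 (SE 0.18, adjusted p 0.851). KCNK5 had 8.95 ± 3.21 RPKM in controls and 12.4 ± 7.04 in treated samples (SD, n = 28; difference 0.35, adjusted p 0.144). With pairing KCNK5 was called higher in the mean effect (adjusted p 0.0103) and at 48 to 72 h (0.68, adjusted p 0.00328, against 0.0948).

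KCNQ5, a subunit of the slow current that dampens neuronal firing, was not called at the first times. The 10 libraries in which it had 1 RPKM or more were all controls, so the level rule favoured a fall. At 24 h controls had 0, 0.213, 0.401 and 0.404 RPKM and treated samples 0.632, 0.234, 0.405 and 0.493. Control replicates 1 and 2 and treated replicate 1 there were shallow, at 1769916, 2046765 and 3447741 alignments. At 66 h controls had 1.13 and 1.54 RPKM and treated samples 0.573 and 0.400. The arms overlapped at 24 h, and all treated samples were below all controls at 66 h.

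The difference for KCNQ5 was 0.21 (SE 0.22) at 0 and 24 h, -0.70 (SE 0.16, adjusted p 7.54e-04) at 48 to 72 h and -0.68 (SE 0.16, adjusted p 0.00184) at 96 to 168 h. Its late effect lay below the early one (-0.89, SE 0.27, adjusted p 0.0337), the 1 member called in that direction. The call was lost when any 1 of 8 samples was left out (highest adjusted p 0.0871). It also ended without the libraries under 5000000 alignments, where 0 members were called in that direction. With a pseudocount of 0.1 the falls were 1.13 and 1.12. KCNQ1 and its accessory subunit KCNE1, which in mammals secrete potassium into the endolymph, were not called: KCNQ1 had 6.33 ± 0.9995 and 6.87 ± 2.37 RPKM, and KCNE1 had 3.59 ± 2.25 and 5.11 ± 3.32 RPKM, in control and treated samples (SD, n = 28).

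KCNH7, of the ether-a-go-go related family and its single member here, rose. It had 0.308, 0.899 and 1.75 RPKM in controls and 0.574, 1.53 and 2.56 RPKM in treated samples, with the treated mean higher at all 11 times on the log scale and no overlap at 7. KCNH7 rose by 0.47 (SE 0.10, adjusted p 4.34e-04). At 96 to 168 h the controls had 0.651 ± 0.181 RPKM and the treated samples 1.53 ± 0.528 (SD, n = 11), a rise of 0.77 (SE 0.16, adjusted p 6.54e-04) that was 0.75 without control replicate 3 at 168 h.

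The silent subunits, which form no channel alone and modify KCNB channels, had 2 members lower, 1 higher and 2 not called of 5. In the same mean effect, 12.5% of all rows were lower and 18.5% higher. KCNG2 had 2.06, 3.93 and 5.99 RPKM in controls and 2.29, 4.98 and 6.77 RPKM in treated samples. It rose by 0.28 (SE 0.08, adjusted p 0.00420), and at 48 to 72 h by 0.47 (SE 0.12, adjusted p 0.00415). Every treated sample lay above every control at 5 of the 11 times and below every control at 0 h. The difference at 0 and 24 h was -0.17 (limma, adjusted p 0.610). With pairing KCNG2 was also called at 96 to 168 h (0.28, adjusted p 0.0427, against 0.121).

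KCNG4 and KCNV1 were low, at 0.790 ± 0.461 and 0.508 ± 0.454 RPKM in controls and 0.451 ± 0.335 and 0.231 ± 0.180 RPKM in treated samples. For KCNV1 only controls reached 1 RPKM (highest treated value 0.764), so the level rule favoured its fall. KCNG4 fell by 0.39 (SE 0.13, adjusted p 0.0153) and KCNV1 by 0.38 (SE 0.12, adjusted p 0.0102); with a pseudocount of 0.1 the falls were 0.74 and 0.66. KCNG4 fell by 0.91 (adjusted p 0.0265) at 0 and 24 h, a call that ended without control replicate 2 or treated replicate 1 at 0 h or control replicate 2 or treated replicate 1 at 24 h (highest adjusted p 0.209) and with a pseudocount of 0.1 (-1.54, adjusted p 0.0717). It fell by 0.58 at 96 to 168 h (1.19 with a pseudocount of 0.1), lost when any 1 of 13 samples was left out. KCNV1 fell by 0.56 at 48 to 72 h (1.01 with a pseudocount of 0.1), lost when any 1 of 7 was, and with pairing also at 96 to 168 h (-0.48, adjusted p 0.0227, against 0.0653). KCNG3 fell at 48 to 72 h (-0.56, adjusted p 0.0352), lost when any 1 of 12 samples was left out, and with pairing in the mean effect (-0.27, adjusted p 0.0492, against 0.0968).

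In the late window 2 accessory genes also rose. KCNE4, whose product slows or blocks KCNA and KCNQ channels, had 1.2045, 0.463 and 1.46 RPKM in controls and 8.52, 4.37 and 1.28 RPKM in treated samples at 168 h. The treated values overlapped the controls through replicate 3. KCNE4 rose by 1.09 (SE 0.33, adjusted p 0.0175) at 96 to 168 h; the call ended without control replicate 2 or treated replicate 1 at 144 h (highest adjusted p 0.0699) and with a pseudocount of 0.1 (adjusted p 0.0768). With pairing its mean effect of 0.46 was called too (adjusted p 0.0110, against 0.0921). KCNRG, a soluble regulator of voltage-gated channels, went from 1.64 ± 0.741 to 2.53 ± 0.656 RPKM (SD, n = 11) and rose by 0.55 (SE 0.19, adjusted p 0.0411) in that window, lost when any 1 of 15 samples was left out, control replicate 3 at 168 h among them (0.51, adjusted p 0.0705). KCNA5 rose there by 0.60 (adjusted p 0.0387), also lost with any 1 of 15, and with trimmed-mean scaling (adjusted p 0.0554); its rise of 0.63 at 48 to 72 h ended without treated replicate 1 at 48 h or treated replicate 2 at 66 h (highest adjusted p 0.0607).

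The late effects of the genes that fell most were of similar size without control replicate 3 at 168 h. KCNA2 then fell by 1.96 against 1.86 with it, KCNA3 by 2.35 against 2.18, KCNAB2 by 1.75 against 1.58 and KCNMA1 by 1.46 against 1.44. KCNAB1 fell by 1.18 against 0.98 and KCNA1 by 1.14 against 1.08. Each of these was called both ways.

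Set against the early effect, the late one was higher in 32 of the 43 members and lower in 11, most of them without a call. The same count of signs was not made over all rows. It was called higher for 4 members (9.30%), KCNA2, KCNA4, KCNJ2 and KCNJ12, and lower for 1, KCNQ5; over all rows 3.9% were called higher and 4.44% lower. With pairing, KCNA10 and KCNAB1 were also called higher and KCNC2 lower, giving 6 and 2 members, and over all 13862 rows the calls went from 540 higher and 616 lower to 1152 and 1460. The median member moved by 0.36, against -0.03 over all rows. KCNA2 still fell by 1.86 (SE 0.16) late, against 2.78 (SE 0.23) early, and the step of 0.91 (SE 0.28, adjusted p 0.0387) was lost when any 1 of 9 samples was left out, among them control replicate 3 at 168 h (0.82, adjusted p 0.0532). Of the 9 hair cell markers, 5 were called higher late than early, with a median of 1.01. Both arms moved between these windows. The median summed marker level went from 1805 to 1172 RPKM in controls and from 217 to 342 RPKM in treated samples. The marker effects without control replicate 3 at 168 h are not given here.

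**Figure D5:**
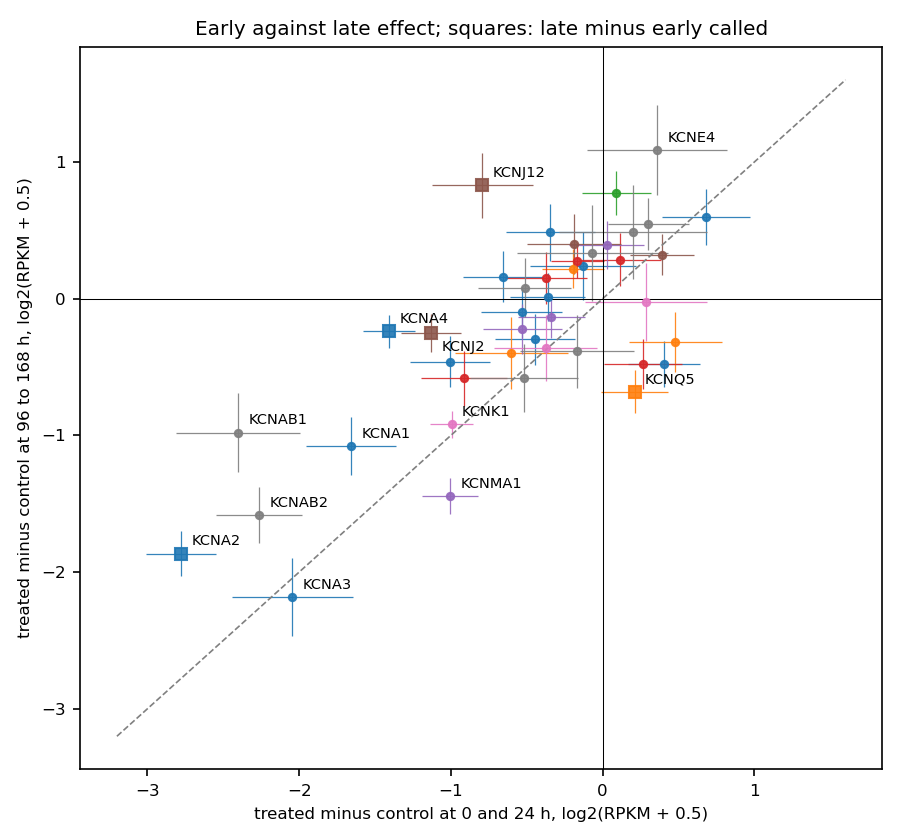
Treated minus control at 0 and 24 h (horizontal) against 96 to 168 h (vertical) for the 43 genes, as log2(RPKM + 0.5) with bars of 1 SE and colours by role; squares mark genes whose late minus early difference was called, and the dashed line marks equality. KCNA2, KCNA4, KCNJ2 and KCNJ12 lie above the line and KCNQ5 below it.

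Changes in the controls themselves were about as frequent among the members as over all rows. In an F test across the 11 times of control samples, 3 members were called (KCNQ3 at adjusted p 0.00977, KCNQ5 at 0.0219 and KCNIP4 at 0.0219), 6.98% against 6.46% of all rows. KCNQ3, of the same family as KCNQ5, had 0.386 and 0.494 RPKM at 0 h, 0, 0, 0.381 and 0.413 at 24 h, and 2.21, 2.13 and 2.01 at 96 h. KCNIP4 had 14.3 and 12.5 RPKM at 0 h and 4.79, 2.46 and 1.58 at 168 h. So KCNQ3 was low at the first times and KCNIP4 at the last, with no overlap between those groups. Treatment called neither, with mean effects of -0.24 (adjusted p 0.203) and -0.15 (adjusted p 0.430). The call of KCNIP4 ended without control replicate 1 at 0 h or control replicate 2 or 3 at 168 h (highest adjusted p 0.0935), and that of KCNQ5 without control replicate 1 or 2 at 24 h (0.0860).

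In all, 28 members were called in at least 1 of the 5 comparisons and 15 in none. The same count was not made over all rows. In the mean effect alone, 18.5% of all rows were called higher and 12.5% lower. Among those 15 were KCNA6, KCNA10, KCNB2, KCNC4, KCNE1, KCNE2, KCNG1, KCNIP4, KCNJ3, KCNJ16, KCNK5, KCNK17, KCNQ1 and KCNQ3. Of the rows left out by the level rule, KCNIP1, KCNMB2, KCNS1 and KCNS3 were among those that reached 1 RPKM in 1 library, and KCNC4, KCNT1 and KCNV1 were just inside it with 4 libraries. KCNMB1, a beta subunit of the KCNMA1 channel, had a highest value of 0.927 RPKM.

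Genes that work with the channels were counted in the same way. Of 20 regulators of potassium channels tested, 9 fell and 2 rose in the mean effect (median -0.22). Over all rows 12.5% fell and 18.5% rose. Of these regulators, LRRC26, LRRC52, AKAP5, CNTNAP2 and CNTN2 were each listed at 0 in at least 1 library. CNTNAP2, which clusters KCNA channels on axons, fell by 1.61 (SE 0.16, adjusted p 6.01e-11). DPP6 and DPP10, which attach to KCND pores, fell by 1.32 (SE 0.10) and 0.44 (SE 0.09). LRRC38, a gamma subunit of the KCNMA1 channel, fell by 0.81 (SE 0.13), while its relative LRRC52 rose by 0.59 (SE 0.14, adjusted p 0.00134). REST, a repressor of neuronal genes, rose by 0.27 (SE 0.09, adjusted p 0.0172), and others that fell were ADAM22, AKAP5, AKAP9 and STX1A.

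Of 5 sodium-potassium pump genes, 3 rose and 1 fell (median 0.36), while 18.5% of all rows rose and 12.5% fell. ATP1B1, a beta subunit, fell by 0.38 (SE 0.07, adjusted p 9.47e-05) and by 0.99 (SE 0.17) at 0 and 24 h, whereas ATP1B3 rose by 0.36 (SE 0.08) and FXYD6 by 0.40 (SE 0.12). Of 9 cation-chloride and other potassium carriers, 2 fell (SLC24A3 by 0.60 and SLC12A4 by 0.37) and 0 rose (median -0.09); 4 of the 9 had an unadjusted limma p under 0.05 in either direction. SLC12A2, which loads secretory cells with potassium, had a difference of 0.03 (SE 0.06).

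Markers of other cells moved with treatment too, and their part in the results above was not tested. In the mean effect, 18.5% of all rows rose and 12.5% fell. Of 7 supporting cell markers, 4 rose and 0 fell. Their summed levels were 208 to 1421 RPKM in controls and 658 to 1884 in treated samples. Stroma markers rose in 8 of 9 (41.7 to 912 and 51.0 to 1231 RPKM), dividing cell markers in 5 of 5 (54.8 to 151 and 70.5 to 406 RPKM), glia markers in 2 of 5 (55.0 to 240 and 148 to 361 RPKM) and muscle markers in 3 of 7 (7.62 to 54.8 and 7.56 to 81.7 RPKM). Of 5 neuron markers 1 rose and 2 fell (64.6 to 270 and 53.2 to 201 RPKM), with SNAP25 and SYT1 each listed at 0 in a library. Of 5 leukocyte markers 2 rose and 2 fell (22.9 to 55.97 and 20.8 to 47.7 RPKM). Of 7 markers of ion-transporting epithelium, which include KCNQ1 and KCNE1, 1 fell, ATP1B1 (76.7 to 188 and 68.7 to 227 RPKM). No marker of endothelium (3 tested), erythroid cells (2) or melanocytes (2) was called, with 1, 0 and 0 of them at an unadjusted limma p under 0.05.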

How the data were processed

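Utricle RNA-seq libraries from streptomycin-treated and control tissue were read from 1 table of 60 libraries. Its values are taken as RPKM, as deposited by the authors, and the unit was inferred from the values. Multiplying by library size gave whole steps (within 0.05) for 60.7% of 1280 rows checked. Without it 0% of 12036 rows did so, but these were a different set of rows, so the 2 shares are not comparable. The check bears on scaling by library size and not by transcript length. TopHat 1.4.0 and Partek 6.6 are named per the submitters' processing notes. The genome build and gene models were not given in the sources used here. A gene's RPKM depends on the transcript model and on how reads shared by similar genes were assigned. Another 2 columns matched no labelled sample and were not used.

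Repeat libraries of 4 samples, which correlated at 0.984 to 0.993 against 0.894 to 0.987 for separate samples of a group, were averaged on the log scale. Rows that reached 1 RPKM in 2 libraries or more were fitted with limma 3.58.1 in R 4.3.3 (empirical Bayes with intensity trend) on log2(RPKM + 0.5), with 22 group means and 34 residual degrees of freedom; p-values were Benjamini-Hochberg adjusted over 13862 rows and called under 0.05. Windows average the effects of their times. For the trimmed-mean scaling, weighted trimmed means of log ratios between libraries were computed. Figures were drawn with matplotlib 3.10.9. The fit was tested on simulated data. The depth behind single values is the number of alignments per library, and intervals from counts were not formed.

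Treated and control samples of one time share replicate numbers. Their deviations from the group means correlated above 0.1 in 26 of 28 pairs. At times with 2 samples per arm, both pairs have the same correlation by construction and are not separate evidence. The correlation was 0.117 to 0.71 in the 16 pairs at times with 3 or 4 pairs. For replicate 1 at 24 h (0.117), the shared number did not give the highest correlation. The numbers were taken as pairs from these data, and the paired fit had 17 residual degrees of freedom. Alternatives (69 fits) changed the pseudocount, the low-value filter, the scaling, the pairing and the samples. Members and lists were chosen with earlier results of these data known. Genes were named when called in the mean effect, a window or late minus early, ordered by largest window effect up to 30, plus a fixed set including KCNQ1, KCNE1, KCNJ16 and KCNA10; KCNA6, KCNK5, KCNIP4 and KCNQ3 were named after their values were seen. Results for some genes are not reported here. Gene neighbours came from an annotation of GRCg7b, which matched 42 of the 43 members; its coordinates were not used.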

Additional observations from a re-analysis of the deposited data

Results flagged for a closer look

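Among 66 gene-by-group sets of 4 samples, 3 held a sample far from the others, where chance alone gives about 1 in 20. KCNA3 in control replicate 2 at 24 h was the highest of its group at 38.0 RPKM. KCNH7 was the lowest of its group in the same library, at 0.308 RPKM. KCNT1 in treated replicate 1 at 24 h was the highest of its group at 1.64 RPKM. These libraries had 2046765 and 3447741 alignments, and the part of depth was not tested.

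The treatment effect at 96 to 168 h differed from that at 0 and 24 h by 0.91 for KCNA2, 1.17 for KCNA4, 1.62 for KCNJ12, 0.88 for KCNJ2 and -0.89 for KCNQ5 on the log2 scale (limma, adjusted p under 0.05 in each). The effect on KCNA4 also differed among the 11 times (limma F test, adjusted p 0.00137).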

How the results depend on the processing

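For the 33 members picked by the naming rule, no value changed direction where it was called. Of the comparisons of a value with its alternative in these genes, 10958 kept their call or lack of one, 295 lost a call and 92 gained one. Direction was not compared where neither fit called the value. With repeat libraries as separate samples, 1 member rose at 0 and 24 h, 3 had a late effect below the early one, 2 differed in effect between times, 5 differed between times in controls and 2 rose at single times. At 96 to 168 h, 3 members rose with a pseudocount of 0.1, 3 with trimmed-mean scaling and 3 with quantile normalization. Quantile normalization gave 3 late effects below the early one, 2 members with an effect that differed between times and 1 higher at single times. Trimmed-mean scaling gave 5 that differed between times in controls. Pairing (the replicate block) gave 2 late effects below the early one and 3 higher at single times; without libraries under 5000000 alignments these were 0 and 3. The control F test could not be fitted with pairing. For most of these alternatives the calls over all rows are not given here, so the counts are not read as changes particular to the members. In all members, pairing ended no call of the mean effect, the windows or late minus early, and the calls it added are given in the report.

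Leaving out samples, singly or all of 1 replicate number, gave 1 to 5 members higher and 13 to 22 lower in the mean effect, 0 to 0 and 6 to 12 at 0 and 24 h, 0 to 3 and 7 to 19 at 48 to 72 h, and 0 to 6 and 5 to 11 at 96 to 168 h. Late effects above the early one numbered 0 to 6 and below it 0 to 2. The F tests called 0 to 2 and, in controls, 0 to 5, and single times gave 0 to 4 higher and 14 to 73 lower. The lowest counts came without replicate 2, which removes a sample from every group; 44 calls of named genes were lost there, among them KCNMA1 at 0 and 24 h (-0.72, adjusted p 0.196) and KCNA1 at 96 to 168 h (-0.87, adjusted p 0.0778). The single samples that moved the number higher at 96 to 168 h are given in the report. Calls over all rows without these samples are not given here, so such counts are not read as changes particular to the members. Without control replicate 2 or treated replicate 1 at 0 h, 2 late effects lay above the early one. Without control replicate 2 at 24 h or at 168 h, 1 and 4 rose at single times. In controls 5 members differed between times without control replicate 1 or 2 at 54 h, control replicate 1 at 66 h, or control replicate 1 or treated replicate 1 or 2 at 168 h.

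A pseudocount of 0.1 also ended the calls at 48 to 72 h of KCNA5 (adjusted p 0.0978), KCNC2 (0.0510), KCNG3 (0.117) and KCNMB4 (0.0502). Quantile normalization ended those of KCNN2 at 48 to 72 h (0.0564), KCNT1 in the mean effect (0.0716) and KCNA2 late minus early (0.128). The causes were not tested. Low genes and libraries of few alignments limit what could be detected.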
